A study of Drosophila melanogaster with 8 samples.

Results

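The genes Ogdh, Scsalpha1 and ScsbetaA encode enzymes of the tricarboxylic acid cycle that make and then use up succinyl-CoA, and their transcripts were followed here in the heads of drug-fed flies. The array carried 1 clone of each gene, so the members are 3 clones of 13824, or 6 spots of 27648, since every clone was spotted as a pair. They were chosen by gene name, with the knowledge that all 3 had lower ratios in drug-fed than in control heads on day 10 in an earlier analysis of these arrays. Their day-10 values are therefore given as a description, and these genes are tested at day 14 only. The main fit behind those tests estimates the spread from the arrays of both days.

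Oxoglutarate dehydrogenase converts oxoglutarate into succinyl-CoA, and Ogdh encodes the E1 component of that enzyme complex, which performs the decarboxylation. Succinyl-CoA synthetase then converts succinyl-CoA into succinate while making a nucleoside triphosphate. It is built from an alpha subunit, encoded by Scsalpha1, and a beta subunit, of which ScsbetaA encodes the ADP-forming kind. The GABA shunt leads around both enzymes: glutamate is turned into GABA, and GABA transaminase and succinic semialdehyde dehydrogenase return its carbon to the cycle as succinate. In neural tissue the shunt joins the removal of a transmitter to energy metabolism.

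Vigabatrin irreversibly inactivates GABA transaminase, and pentylenetetrazole blocks GABA-gated chloride channels and provokes seizures. Unmated males of the Oregon-R wild type, 3 to 4 days old at the start, ate food with pentylenetetrazole (PTZ) at 8 mg/ml for 7 days and then food with vigabatrin (VGB) at 24 mg/ml for 3 days. The day-10 group was harvested at that point. The day-14 group had the same 2 drugs and then 4 more days of normal food. Control flies of each day stayed on normal food throughout. Each of the 8 arrays, 4 for each day, set 1 pool of treated heads against 1 parallel pool of control heads, and the submitters call the 4 sets of a day biological replicates. The RNA came from pools of whole heads, so a lower ratio cannot be told apart from fewer cells of a type that uses the gene. Treated RNA carried the dye Cy5 in replicates 1 and 2 of each day and Cy3 in replicates 3 and 4. All ratios below are log2 of treated over control, after the sign of the swapped arrays was turned, and a negative value means less transcript in the treated heads. Ratios of 2 colours give no level, so the 3 genes cannot be ranked by abundance.

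The number of spots with a value ran between 8419 and 20241 per array. Day-10 replicate 4 and day-14 replicate 1 held the fewest, with 8419 and 9266 spots. The median ratio of an array also differed, and day-10 replicates 1 and 2 stood apart with medians of -0.48 and -0.35, against -0.11 to 0.24 on the other 6 arrays. Which channel stands on top of the deposited ratio is not given in the sources used here, and it was taken to be Cy5. Before the sign was turned, all 4 same-day pairs of arrays with 1 dye orientation correlated above 0 (Pearson r between 0.24 and 0.64 over 3066 to 9066 clones), while 6 of the 8 same-day pairs with opposite orientation correlated below 0 (r between -0.25 and 0.14). Ratios already turned would give the same pattern if dye bias outweighed treatment, so these correlations cannot settle the direction. It is uncertain, and values under the other reading, with the sign not turned, are given with the results. Of markers that place the tissue, nSyb of neurons and inaD and trp of photoreceptors were measured on 3 or 4 arrays of each day. Arr2 of photoreceptors had a value on only 1 array of each day, and nSyb was the only listed neuronal marker with a clone. Neural and eye transcripts were thus detected, through these few clones. No annotated clone exists for elav, Syt1, brp, para, ninaE, ninaC or norpA.

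Ogdh, the E1 component, was low on some arrays and near 0 on others at day 10. Its ratio was -1.06 in replicate 1, -0.84 in replicate 2 and -0.04 in replicate 4, and replicate 3 gave no value. The mean of -0.65 ± 0.54 (SD, n = 3) corresponds to 36.2% less transcript in the PTZ-VGB heads than in control heads. The 2 low arrays are those with treated RNA in Cy5, and the array with treated RNA in Cy3 was near 0. Leaving out replicate 4, an array with few spots, gave a mean of -0.95, and leaving out replicate 1 gave -0.44. At day 14 the ratio of Ogdh was -0.22, -0.30, -0.20 and 0.13 in replicates 1 to 4. Replicates 1 to 3 lay below 0 and replicate 4 lay above it.

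Scsalpha1, the alpha subunit of succinyl-CoA synthetase, was below 0 on every array. At day 10 its ratio was -0.38, -0.32, -0.47 and -0.66 in replicates 1 to 4, with a mean of -0.46 ± 0.15 (SD, n = 4) or 27.2% less transcript in the treated heads. Both dye orientations were low, and leaving out any 1 array gave means of -0.50 to -0.39. At day 14 the ratio was -0.22, -0.79, -0.14 and -0.15, again below 0 on all 4 arrays, with replicate 2 far below the rest. All 16 spot values of this clone over the 8 arrays were below 0, the day-10 ones on arrays used for the choice. Of 1881 clones measured on all 8 arrays, 6.38% lay below 0 on each. Of 2550 measured on all 4 day-10 arrays, 26.1% lay below 0 on each of those. Relative to the median of its array, Scsalpha1 was below on 6 of the 8 arrays.

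ScsbetaA, the ADP-forming beta subunit, had the lowest single value of the 3 genes. Its ratio at day 10 was -1.30 in replicate 1, -0.28 in replicate 2 and -0.89 in replicate 3, a mean of -0.82 ± 0.51 (SD, n = 3) or 43.5% less transcript in the treated heads. Replicates 1 and 3 differ in dye orientation and both were low, whereas replicate 2 was near the median of its own array. Leaving out any 1 array gave means of -1.09 to -0.58. At day 14 the ratio was -0.26, -0.43 and -0.16 in replicates 1 to 3. Replicate 4 gave no value on either day, so only 1 array of each day had treated RNA in Cy3. All 6 measured arrays lay below 0, 3 of them day-10 arrays used for the choice.

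Over the 3 clones together, 20 of 21 array values and 38 of 42 spot values were below 0. With the sign not turned, 13 of the 21 array values were. The day-10 values among them come from arrays used to choose the genes, and the 2 spots of a clone are not independent. Of all tested clones, 81.6% had a fitted ratio below 0 at day 10 and 44.0% at day 14. Nothing is read from these counts. The 2 spots of a clone differed by a median of 0.21 for Ogdh, 0.23 for Scsalpha1 and 0.28 for ScsbetaA, against 0.18 over all clones and arrays (n = 58410). The widest gaps were 0.62 for Ogdh in day-10 replicate 2 and 0.75 for ScsbetaA in day-10 replicate 3. Those gaps exceed every day-14 ratio of Ogdh and ScsbetaA.

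**Figure D1:**
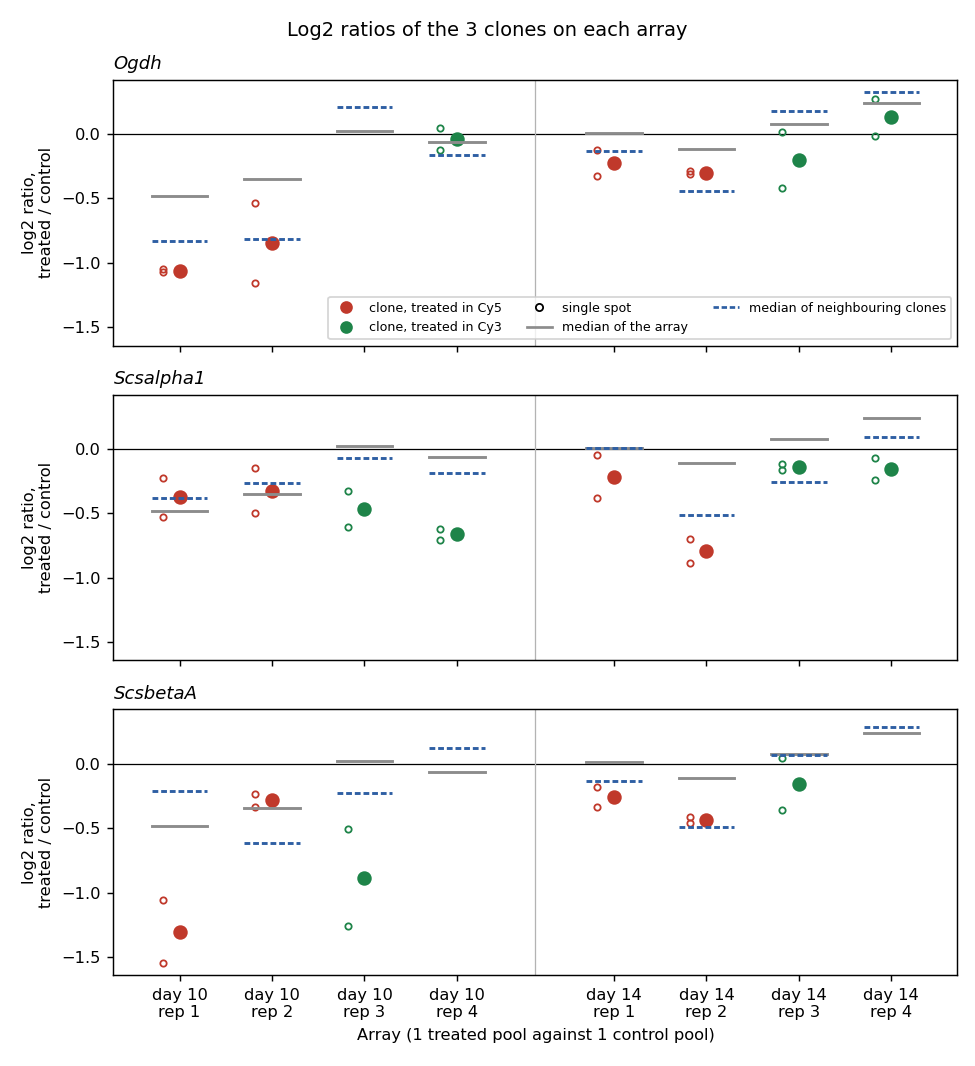
Log2 ratio of treated over control (vertical axis) on each of the 8 arrays (horizontal axis) for Ogdh, Scsalpha1 and ScsbetaA. Filled points are clones, in red where treated RNA carried Cy5 and green where it carried Cy3, and open circles are the single spots. Grey bars are the median of the array and dashed blue bars the median of the neighbouring clones on the slide. Of 21 clone values, 20 are below 0, the day-10 ones on arrays used to choose the genes. Ogdh at day 10 lies near its neighbours.

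The fit across all clones sets these values against the rest of the array. It used limma with 1 coefficient per day and a dye effect per gene. It tested the 4563 clones that had 3 or 4 values at day 10 and again at day 14, and called a clone at a Benjamini-Hochberg adjusted p under 0.05. All 3 clones entered the fit. At day 10, 638 of the 4563 clones were called (14.0%), of which 620 were lower in the treated heads (13.6%) and 18 higher (0.394%). With the sign not turned, 11 clones were called at day 10 (0.241%). All 3 members were among those 620, which is how they came to be chosen, and nothing is read from that count. The fitted day-10 ratios were -0.56 ± 0.16 for Ogdh, -0.46 ± 0.13 for Scsalpha1 and -0.82 ± 0.20 for ScsbetaA (SE), beside a median of -0.21 over all tested clones.

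At day 14, after 4 days without drug, none of the 3 clones passed the test. Scsalpha1 had a fitted ratio of -0.33 ± 0.13 (SE, n = 4), or 20.2% less transcript in the treated heads, with a 95% interval of -0.62 to -0.03 and an adjusted p of 0.244 in limma. It was lower on 4 of 4 arrays, and the exact sign-flip test gave a two-sided p of 0.125, the smallest that 4 arrays allow. A lower fitted ratio was found in 5.26% of the tested clones. With the sign not turned, the ratio was -0.18, it was below 0 on 2 of 4 arrays, and 39.2% of the tested clones had a lower one. Without replicate 2 it was -0.15 (adjusted p = 0.648).

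ScsbetaA had a fitted day-14 ratio of -0.28 ± 0.20 (SE), with an interval of -0.72 to 0.17 and a limma adjusted p of 0.521. It was lower on 3 of 3 arrays (mean -0.28 ± 0.14, SD, n = 3), and 7.69% of the tested clones had a lower fitted ratio. With the sign not turned, the fitted ratio was 0.003 and 73.7% of the tested clones had a lower one. Because replicate 4 is missing, its fitted day-14 value borrows the dye term from the day-10 arrays; the day-14 arrays alone gave -0.25 (adjusted p = 0.221). Ogdh had -0.15 ± 0.13 (SE, 4 day-14 arrays), with an interval of -0.44 to 0.15 and an adjusted p of 0.624 in limma. It was lower on 3 of 4 arrays, and 19.2% of the tested clones had a lower fitted ratio. With the sign not turned Ogdh had -0.11, and 52.2% of the tested clones had a lower one. The turned value of Ogdh was -0.02 without replicate 3 (limma adjusted p = 0.968). Both intervals include 0, and with this number of arrays decreases down to their lower ends are not excluded. Without day-14 replicate 1, the array with few spots, the fitted ratios were -0.22 for Ogdh, -0.38 for Scsalpha1 and -0.30 for ScsbetaA.

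The background of day 14 was as empty. None of the 4563 clones was called in either direction by limma (0%), although 802 had an unadjusted p under 0.05, and the median fitted ratio over all clones was 0.03. When the day-14 arrays were fitted alone, with 5674 clones tested, 853 were called (15.0%), 265 of them lower (4.67%) and 588 higher (10.4%). Scsalpha1 was among the lower ones there, at -0.33 ± 0.11 (SE) with an adjusted p of 0.0459, while Ogdh (adjusted p = 0.404) and ScsbetaA were not. A share of 9.46% of the 2855 clones measured on all 4 day-14 arrays lay below 0 on each of them, as Scsalpha1 did.

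Between the days, the fitted ratio at day 14 was above that at day 10 by 0.42 ± 0.21 for Ogdh, 0.13 ± 0.19 for Scsalpha1 and 0.54 ± 0.27 for ScsbetaA (SE). No test is given for these differences, since the day-10 values were used to choose the genes. Over all clones, none of 4563 was called for the difference between the days by limma (0%), with 1225 at an unadjusted p under 0.05.

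**Figure D2:**
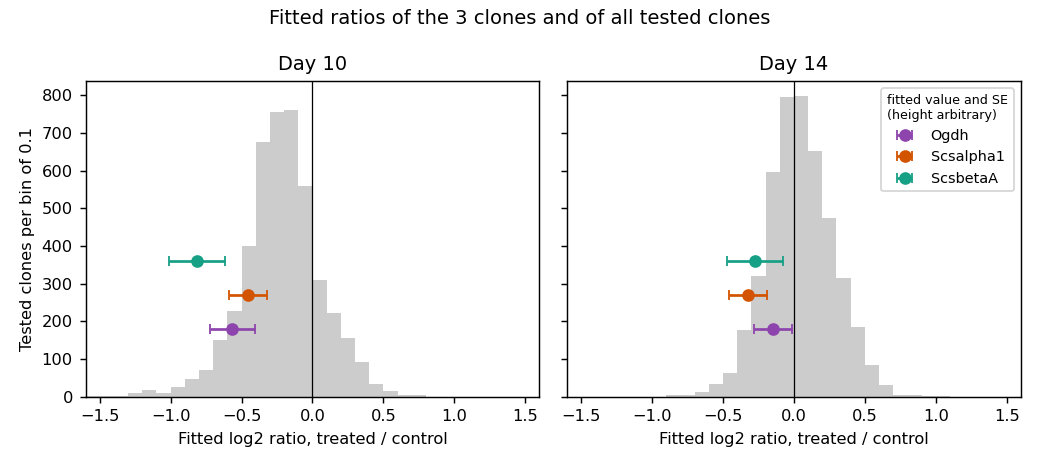
Fitted log2 ratio of treated over control (horizontal axis) at day 10 and day 14 for all 4563 tested clones (grey bars, clones per bin of 0.1) and for Ogdh, Scsalpha1 and ScsbetaA (points with bars of 1 SE, at arbitrary height). At day 10 the distribution is centred below 0, with a median of -0.21, and the 3 genes lie in its lower part; at day 14 the median is 0.03 and the 3 genes lie between -0.33 and -0.15.

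Of all tested clones 81.6% had a fitted day-10 ratio below 0, so each clone was also read against the median of its array. After that centring the mean day-10 ratio was -0.35 ± 0.33 for Ogdh (n = 3), -0.24 ± 0.36 for Scsalpha1 (n = 4) and -0.56 ± 0.54 for ScsbetaA (n = 3, SD throughout). Scsalpha1 changed its pattern most: replicates 1 and 2 lay at 0.11 and 0.02 relative to their arrays, and replicates 3 and 4 at -0.49 and -0.60. With this centring 138 clones were called at day 10 (3.02%), 100 of them lower (2.19%), and none of the 3 was among them.

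At day 14 the same centring lowered the means of Ogdh and Scsalpha1 slightly and drew the arrays of all 3 genes together. Ogdh was at -0.20 ± 0.07 (SD, n = 4) and below the array median on 4 of 4 arrays, with a limma adjusted p of 0.372. Scsalpha1 was at -0.38 ± 0.22 (SD, n = 4), also on 4 of 4 arrays, with an adjusted p of 0.182. ScsbetaA was at -0.28 ± 0.04 (SD, n = 3) on 3 of 3 arrays, with a fitted value of -0.32 and an adjusted p of 0.414. All 11 day-14 values of the 3 clones were then below the median of their arrays. Among all clones with 4 day-14 arrays, 16.5% were below the array median on each.

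The ratios were also set against those of the clones printed nearby on the slide. Ogdh was printed in a block in which 40 of the 139 other tested clones (28.8%) were called lower at day 10, against 13.6% over the array. The neighbouring clones, within 2 rows and 3 clones, had medians of -0.83, -0.82 and -0.16 in day-10 replicates 1, 2 and 4, where Ogdh had -1.06, -0.84 and -0.04. Relative to those neighbours Ogdh was at -0.05 ± 0.18 (SD, n = 3) at day 10. Ogdh was thus about as low as the clones printed around it. On replicate 4 it was higher than they were, but only 6 of them had a value there.

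The succinyl-CoA synthetase subunits kept more of their day-10 ratio when read against their neighbours, though the arrays disagreed. In the block of ScsbetaA 32 of 148 other clones (21.6%) were called lower, and in that of Scsalpha1 8 of 73. ScsbetaA stood at -1.09, 0.33 and -0.66 relative to its neighbours in day-10 replicates 1 to 3, a mean of -0.47 ± 0.73 (SD, n = 3). Scsalpha1 stood at -0.23 ± 0.24 (SD, n = 4), at 0.01 and -0.06 in replicates 1 and 2 and at -0.39 and -0.48 in replicates 3 and 4. In replicate 4 only 5 of its neighbours had a value, the fewest allowed, against 20 to 28 in replicates 1 to 3. None of the 3 clones was called with this local centring, under which 60 of 4255 clones were (1.41%). The day-14 means relative to neighbours were -0.13 ± 0.22 for Ogdh, -0.16 ± 0.19 for Scsalpha1 and -0.10 ± 0.14 for ScsbetaA (SD). Of the 21 array values, 17 were below the array median and 15 below the neighbours. The day-10 values among them come from arrays used to choose the genes. What part slide position has in the ratios was not tested.

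**Figure D3:**
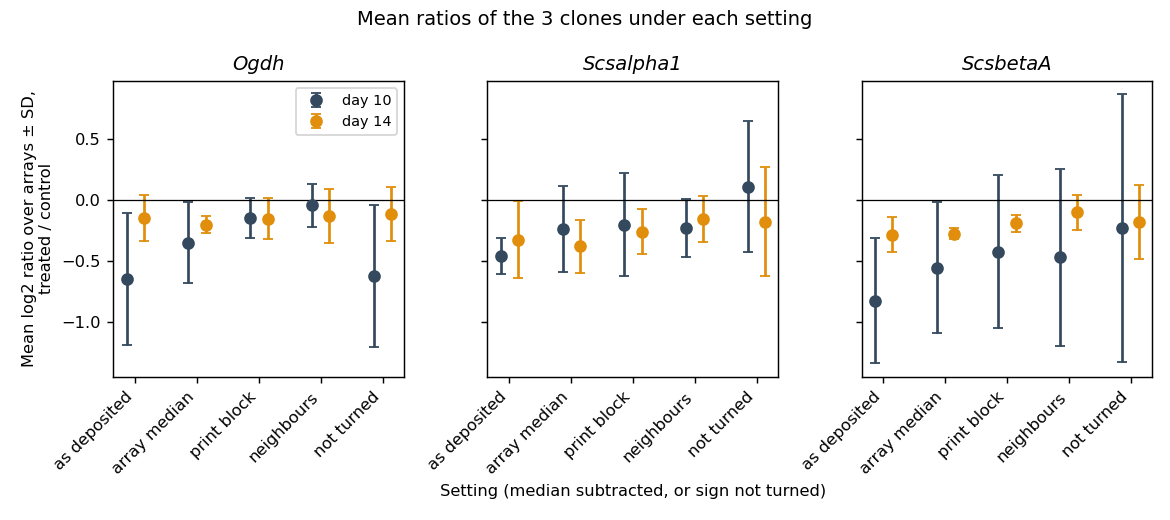
Mean log2 ratio of treated over control ± SD over arrays (vertical axis) for each gene at day 10 (dark) and day 14 (orange), under 5 settings (horizontal axis): as deposited, after subtracting the median of the array, of the print block or of the neighbouring clones, and with the sign of the swapped arrays not turned. The day-10 mean of Ogdh is -0.65 as deposited and -0.05 against its neighbours, and that of Scsalpha1 turns to 0.11 when the sign is not turned.

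The ratio of Ogdh differed most between the dye orientations as deposited, and after centring it no longer stood apart from the other genes in the size of that gap. Over both days, as deposited, Ogdh averaged -0.61 ± 0.41 where treated RNA was in Cy5 (n = 4 arrays) and -0.04 ± 0.17 where it was in Cy3 (n = 3, SD). Scsalpha1 averaged -0.43 ± 0.25 and -0.36 ± 0.25 on the 4 arrays of each orientation, and ScsbetaA -0.57 ± 0.49 on 4 arrays and -0.52 ± 0.52 on 2 (SD). The synthetase subunits were therefore low in both orientations. After array-median centring the means on Cy5 and Cy3 arrays were -0.38 and -0.12 for Ogdh, -0.20 and -0.42 for Scsalpha1 and -0.34 and -0.57 for ScsbetaA, so the gaps were of similar size and that of Ogdh ran the other way. Had the authors already turned the swapped arrays, the day-10 mean would be -0.62 ± 0.58 for Ogdh, 0.11 ± 0.53 for Scsalpha1 and -0.23 ± 1.10 for ScsbetaA (SD). The direction of Scsalpha1 at day 10 thus rests on the reading of the ratio. So does that of ScsbetaA, whose fitted day-10 value with the sign not turned was -0.05. When array-median centring was added, a setting chosen after seeing the data, ScsbetaA averaged 0.05 ± 0.86 (SD, n = 3) at day 10. Scsalpha1 averaged 0.30 ± 0.28 (SD, n = 4) and Ogdh -0.37 ± 0.30 (SD, n = 3) there. For Ogdh the reading could change little, since replicate 4, at -0.04, was its only swapped day-10 array with a value.

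The other parts of the same enzymes were sparsely measured. CG5214, the E2 component of oxoglutarate dehydrogenase, had day-10 ratios of -0.30, -0.51, -0.18 and 0.06, a fitted value of -0.23 ± 0.13 (SE) and an adjusted p of 0.217 in limma. At day 14 its fitted value was -0.03 ± 0.13 (adjusted p = 0.937). CG7430, the E3 component that other dehydrogenase complexes share, had 0.06, -0.12 and -0.34 on 3 day-10 arrays and -0.27 on 1 day-14 array, too few for the test. Scsalpha2, a paralogue of Scsalpha1, was measured at -0.91 and -0.43 on 2 day-10 arrays and on no day-14 array. The GDP-forming beta subunit ScsbetaG has no clone among the annotated ones, so the alternative partner of the alpha subunit is not described here.

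Of the 16 other genes of the cycle that were listed, 9 had a clone (11 clones) and 4 could be tested. At day 10, 1 of those 4 was called lower and none higher, and their median was -0.26 beside -0.21 over all clones. The gene called was SdhD, a membrane anchor of succinate dehydrogenase, the enzyme that takes up the succinate made by the synthetase. One of its 2 clones had ratios of -0.92, -0.98, -0.02 and -0.14 at day 10, a fitted value of -0.52 ± 0.12 (SE) and a limma adjusted p of 0.0181. Like Ogdh it was low on the replicates with treated RNA in Cy5 and near 0 on the others. The call was lost without day-10 replicate 1 (adjusted p = 0.0693), 2 (0.0781) or 4 (0.0509), and after array-median (-0.30, adjusted p = 0.124), print-block (-0.17, 0.393) and local centring (-0.12, 0.711). It was also lost with the sign not turned (-0.43, adjusted p = 0.172), without the dye term (0.107) and on the day-10 arrays alone (0.0941). The second SdhD clone, on too few arrays for the test, had -0.83, -0.10 and -0.32 at day 10.

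Upstream of oxoglutarate, neither of the measured isocitrate dehydrogenase subunits was called. Idh3a, the alpha subunit, had -0.51, -0.19, -0.31 and -0.10 at day 10 (fitted -0.28 ± 0.11, limma adjusted p = 0.113) and 0.07, 0.10 and 0.10 at day 14. Idh3b, the beta subunit, ranged between -0.83 and 0.74 on 3 day-10 arrays (fitted 0.14 ± 0.22, adjusted p = 0.666) and had -0.52, -0.51 and -0.15 at day 14 (fitted -0.50 ± 0.22, adjusted p = 0.283). The other measured subunits of succinate dehydrogenase, SdhB and SdhC, and the aconitase gene mAcon2 could not be tested. At day 10 the 2 SdhC clones ran between -0.70 and -0.29, SdhB between -0.66 and 0.03 on 3 arrays, and mAcon2 had 0.07 and 0.38 on 2 arrays.

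At the entry of pyruvate, 3 of 8 listed genes could be tested and 1 was called lower at day 10. Mpc1, a subunit of the mitochondrial pyruvate carrier, had -0.75, -0.73, -0.63 and -1.01, with a fitted value of -0.78 ± 0.13 (SE) and an adjusted p of 0.00613 in limma. It was below -0.6 on every day-10 array, in both dye orientations. It was also called after array-median centring (-0.56, adjusted p = 0.0443), but not relative to its neighbours (-0.47, adjusted p = 0.154), and it stood at 0.04 with the sign not turned. With centring, the call was lost without any 1 of the 4 day-10 arrays (adjusted p between 0.0684 and 0.125) and without day-14 replicate 3 (0.0887) or 4 (0.0644). Pyruvate carboxylase, PCB, had a fitted -0.39 ± 0.12 (adjusted p = 0.0525), and Pdp, the pyruvate dehydrogenase phosphatase, 0.17 ± 0.17 (adjusted p = 0.487). The clone of muc, the E2 component of pyruvate dehydrogenase, had -0.66 on 1 day-10 array and 0.60 and -0.54 on 2 day-14 arrays, too few for the test. At day 14 Mpc1 was at -0.06 ± 0.16 (adjusted p = 0.889).

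In the GABA shunt, neither of the 2 testable clones was called. Gad1, the glutamate decarboxylase that makes GABA, had a fitted day-10 ratio of -0.14 ± 0.13 (SE, limma adjusted p = 0.441), and Gdh, glutamate dehydrogenase, -0.16 ± 0.16 (adjusted p = 0.498). A second Gad1 clone, on too few arrays for the test, had 0.80 on 1 day-10 array and 0.27 and 0.66 on 2 day-14 arrays. Gabat, the transaminase that vigabatrin inactivates, had 0.33, -0.23 and -0.37 on 3 day-10 arrays and -0.11 and 0.45 on 2 day-14 arrays. Ssadh, which delivers the succinate, had -0.34 and 0.09 on 2 day-10 arrays and -0.31 on 1 day-14 array. Neither was tested, and the day-10 arrays of each lay on both sides of 0. Other enzymes that use succinyl-CoA, SCOT of ketone body breakdown and Alas of haem synthesis, were on too few arrays as well; SCOT had -0.58, -0.28 and -0.24 and Alas 0.09, -0.38 and -0.28 on 3 day-10 arrays.

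Over the cycle, its pyruvate entry, the shunt and the other users of succinyl-CoA, 9 clones besides the members were tested. At day 10, 2 of them were called lower and 0 higher, beside 13.6% and 0.394% of all clones, and their median was -0.23. At day 14 none was called.

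**Figure D4:**
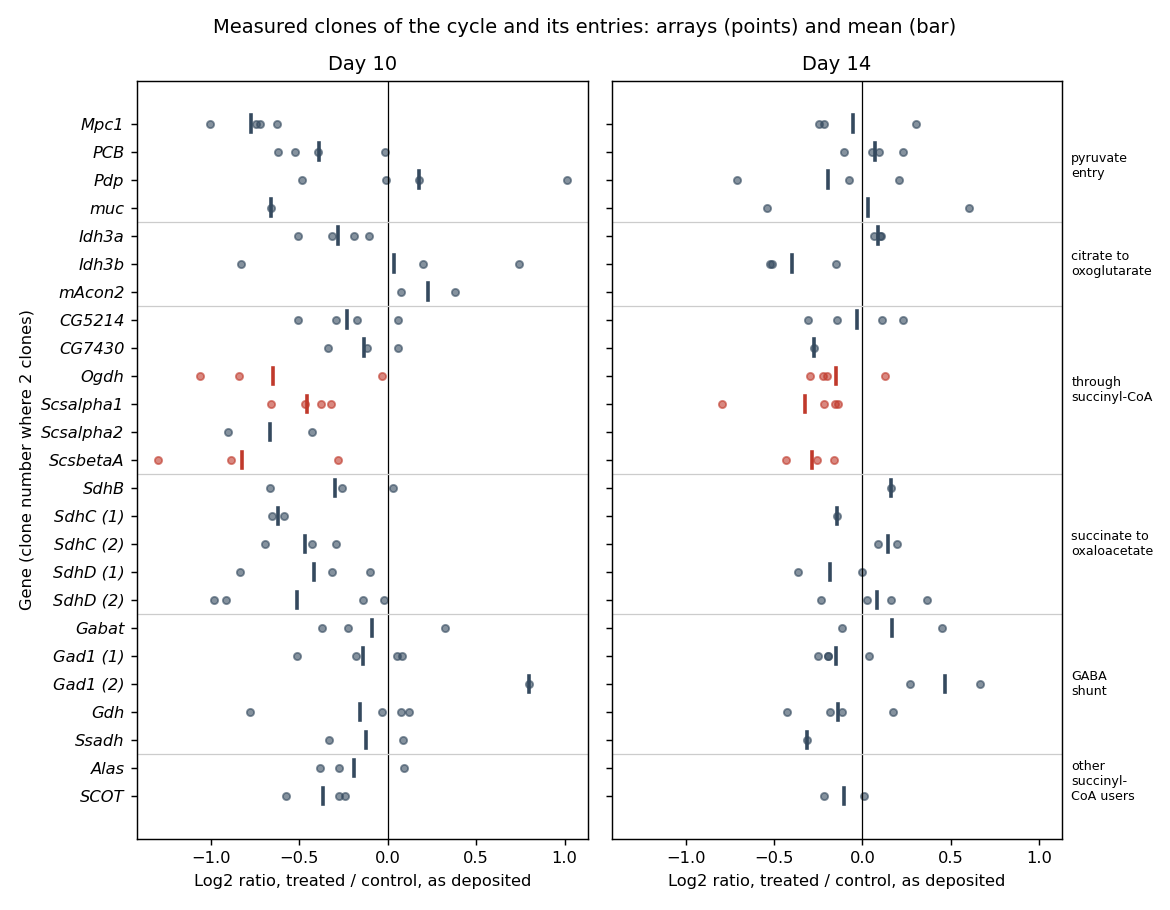
Log2 ratio of treated over control (horizontal axis, as deposited) of each measured clone (rows, grouped by the step of metabolism), with 1 point per array and a bar at the mean, at day 10 and day 14. Ogdh, Scsalpha1 and ScsbetaA are in red; at day 10 Mpc1 lies between -1.01 and -0.63 on all 4 arrays.

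Markers of other head cell types moved on the same day-10 arrays. All 4 tested glial markers of 5 listed were called lower at day 10, beside 13.6% of all tested clones, with a median of -0.69 and a range of -0.92 to -0.57, while repo, which defines glia, has no clone among the annotated ones. Of the fat body markers, 4 of 5 tested clones were called lower, with a median of -1.07. After array-median centring the glial median was -0.48, with 1 of 4 clones called lower, and the fat body median -0.90, with 3 of 5, beside 2.19% of all tested clones. With the sign not turned, no marker clone of either list was called and the medians were -0.31 for glia and 0.27 for fat body. None of 2 photoreceptor, 2 muscle and 1 neuronal clones was called, and the neuronal nSyb stood at 0.26 ± 0.15 (SE). At day 14 no marker was called, and the medians were -0.22 for glia and -0.51 for fat body. The part of a change in these cells in the ratios of Ogdh, Scsalpha1 and ScsbetaA was not tested.

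The genes most like the 3 in their course over the arrays were sought by Pearson correlation of array-median-centred ratios with the mean of Ogdh and Scsalpha1, since ScsbetaA lacks replicate 4 of both days. Of 839 candidate genes with 1 clone and values on all 8 arrays, Jon66Cii (r = 0.90), CG9328 (0.89), Ank (0.89), CG8312 (0.88) and snu (0.87) were nearest. The mean that they were set against lay between -0.49 and -0.23 on the 8 arrays, and its lowest value, in day-10 replicate 3, came from Scsalpha1 alone. The next lowest, -0.43 in day-14 replicate 2, averaged -0.68 for Scsalpha1 and -0.19 for Ogdh. On the remaining arrays the mean stayed between -0.29 and -0.23. The correlations thus follow mainly low values of Scsalpha1 on 2 arrays. Of the 5, Jon66Cii was below the array median on all 8 arrays, from -0.76 to -0.22. The others lay on both sides of the array median, and CG8312 ran from -0.72 to 1.16 at day 10. These correlations over 8 arrays are a description of the nearest courses among many.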

How the data were processed

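RNA from pools of fly heads was hybridized to 8 cDNA arrays, each with 2 colours. Per the submitters' design text, images from a GenePix 4000A were quantified in GenePix Pro 6.0, and the authors normalized ratios in Acuity 4.0 and filtered spots on intensity, background, saturation and flags. The deposited values are log2 ratios by the authors; that they are log2 was read from the values, and the spot intensities were not used here. The sign of swapped arrays was turned, the 2 neighbouring spots of a clone were averaged, and clones were named through the platform annotation and RefSeq, without coordinates, since the build is not given in the sources used here. Of 13824 clones, 7558 had 1 gene, 51 several and 6215 none. Print blocks of 576 spots in rows of 24 were inferred from the order of spots.

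limma 3.58.1 in R 4.3.3 (lmFit, eBayes) fitted day 10, day 14 and a gene-specific dye term on clones with at least 3 values on each day; p-values were adjusted by Benjamini-Hochberg over all 4563 clones. The fit was tested on simulated data. Single day-14 clones also had exact sign-flip tests. The members and gene lists were chosen with earlier results of these data known; the genes named are the members, every measured gene of the pathway lists, cell type markers and the 5 nearest courses. Alternatives were centring on the array, print block or neighbours, no turning, no dye term, a replicate block, other filters, each day alone and leaving out each array. Same-numbered arrays of the 2 days were compared to see whether replicate numbers pair them. The number of arrays limits the precision.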

Additional observations from a re-analysis of the deposited data

Results flagged for a closer look

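In groups of 4 arrays, 1 array lay far from the other 3 for 2 of the 16 groups examined, where chance would give about 1 in 20. Scsalpha1 at day 14 had -0.79 in replicate 2, against -0.22 to -0.14 in the other replicates. On that array the median of the neighbouring clones was -0.51, the lowest neighbour median of this clone on any of the 8 arrays.

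Gdh, glutamate dehydrogenase, had -0.78 in day-10 replicate 3, against -0.03 to 0.12 in the other day-10 replicates. Idh3a lay below 0 on all 4 day-10 arrays (mean -0.28) and above 0 on all 3 measured day-14 arrays (mean 0.091). The fitted ratio at day 14 was above that at day 10 by 0.36 ± 0.18 (SE), with a limma adjusted p of 0.215.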

How the results depend on the processing

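The count of clones called at day 10 was 638 as deposited, 138 with array-median, 121 with print-block and 60 with local centring, 11 with the sign not turned, 268 without the dye term and 87 from the day-10 arrays alone; leaving out 1 array gave 226 (without day-10 replicate 1) to 684. At day 14 it was 0 except for 853 from the day-14 arrays alone, and 0 to 3 with 1 array left out. For the difference between the days it was 1 with values required on all 8 arrays and 0 to 17 with 1 array left out. Pathway genes called at day 10, besides the 3, numbered 2, against 1 with array-median or print-block centring, without the dye term or from the day-10 arrays alone, 0 with local centring or no turning, and 1 to 3 with 1 array left out; Mpc1 stood at 0.04 with no turning.

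The day-10 mean moved for Ogdh to -0.149 and -0.045 with print-block and local centring, for Scsalpha1 to -0.24, -0.20 and -0.23 with array-median, print-block and local centring and to 0.11 with no turning, and for ScsbetaA to -0.43 with print-block centring and -0.23 with no turning. Leaving out 1 array gave -0.95 to -0.44, -0.50 to -0.39 and -1.09 to -0.58 for Ogdh, Scsalpha1 and ScsbetaA. At day 14 Scsalpha1 passed from the day-14 arrays alone (-0.33). ScsbetaA turned to 0.003 with no turning and to 0.032 when this was joined with array-median centring, a setting chosen after seeing the data. Leaving out 1 array at day 14 gave -0.22 to -0.02, -0.39 to -0.15 and -0.39 to -0.21 for the 3 genes, none past the threshold. The cause of these shifts was not tested.

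Deviations of same-numbered arrays of both days from the fit correlated at r -0.43 to -0.06 over 1881 clones. Removing the day and dye terms itself pushes these deviations towards opposite signs, so whether the numbers pair the arrays was not settled. With the replicate number as a block in place of the dye term, 460 of 4444 clones were called at day 10 and 0 at day 14, Ogdh was at -0.15 (limma adjusted p = 0.737) and Scsalpha1 at -0.33 (0.363) at day 14, and ScsbetaA could not be fitted because replicate 4 is missing on both days.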
